A study of Mus musculus with 54 samples.

Results

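The data are whole-lung RNA from male C57BL/6 mice that received bleomycin, a drug that scars the lung, followed by BT2, a small molecule injected from day 3. BT2 inhibits BCKDK, the kinase that switches off the oxidation of branched-chain amino acids. The comparison covers 6 of the 54 samples of the series, 3 BLM_BT2 libraries and 3 BLM_DMSO libraries, chosen by their titles, and all 18151 genes that passed a filter on low values. BLM_BT2 mice were wild type, 10 to 12 weeks old, were given 3.5 mg/kg bleomycin, and from day 3 had BT2 injected intraperitoneally every day at 20 mg/kg, 11 days in all. BLM_DMSO mice were of the same sex, strain and age, had the same bleomycin dose, and had 10% DMSO injected on the same days. Lungs of both groups were taken on day 14. The uninjured comparison is 3 PBS_DMSO libraries of the same mouse experiment, wild-type males of the same age on a normal diet. Their title names DMSO, while the design text gives them PBS and a normal diet and does not say whether DMSO was injected. All 9 libraries carry 1 batch label. One passage of the labels describes RNA extraction from heart tissue, whereas these samples are labelled as lung, and their most abundant cell markers were of lung. Scgb1a1, the secretory protein of airway club cells, averaged 79220 ± 28180 TPM in BLM_BT2 lungs and 17110 ± 5346 TPM in BLM_DMSO lungs, and Sftpc, the surfactant protein C of alveolar type 2 cells, averaged 51540 ± 14710 TPM in BLM_BT2 lungs and 7060 ± 5286 TPM in BLM_DMSO lungs (SD, n = 3 each). The rest of the series is other mouse lung experiments and cultured lung fibroblasts. Of those, 2 treatments of bleomycin lungs are set beside the BT2 values. In the diet experiment 4 BLM_BCAA_free mice, fed without branched-chain amino acids for 14 days from day 7, were set against 4 BLM_ND mice on a normal diet, with 4 uninjured PBS_ND mice and lungs taken on day 21. In the water experiment 3 BLM_BCAA mice, given branched-chain amino acids in the drinking water at 3 mM for 7 days before bleomycin, were set against 3 BLM_NW mice on normal water, with 3 uninjured PBS_NW mice and lungs taken on day 14. All were wild-type males of the same strain, 10 to 12 weeks old, and the injured ones had 1.25 mg/kg bleomycin.

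Leucine, isoleucine and valine are first transaminated by BCAT1 or BCAT2 to keto acids, which the BCKDH complex in mitochondria then commits to oxidation. BCKDK phosphorylates and inhibits that complex, and PPM1K removes the phosphate, so a BCKDK inhibitor speeds the loss of branched-chain keto acids without needing any change of transcript. After bleomycin, alveolar epithelium is damaged, monocyte-derived macrophages enter the lung, and fibroblasts turn into contractile myofibroblasts that lay down and cross-link collagen.

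Values are TPM, each transcript's share of its library after division by its length, and are given for each library as replicates 1, 2 and 3. Differences are log2 changes on the log2(TPM + 1) scale, which understates changes of low genes. A gene counted as higher or lower at a Benjamini-Hochberg adjusted p under 0.05 from limma, two-sided, over the 18151 genes. List sizes count the members that passed the filter. The 12 largest rises and the 12 largest falls spoken of below leave out mitochondrial genes, receptor segments, pseudogenes and genes known only by prediction. In BLM_BT2 against BLM_DMSO lungs 1151 genes were higher, 6.34% of those tested, and 982 were lower, 5.41% of those tested. Of the lower genes 54 reached 1 TPM only in the 3 BLM_DMSO lungs, and of the higher genes 29 only in the 3 BLM_BT2 lungs. Such genes, among them Bcat1, Vsig4, Col11a1 and Xcr1, entered the test only through the group in which they were high. The median of all genes was 0.12 log2. After each library's trend with transcript length and GC content was removed, the split was 1396 higher and 2034 lower. The p-values rest on the spread within all 3 groups, PBS_DMSO included. With only BLM_BT2 and BLM_DMSO in the fit, 104 genes were higher and 86 lower. Of 166 called genes picked by the naming rule given below, 124 lost their call in that fit. The sequencing depth is unknown, since only TPM are used, and 23653 to 25628 genes were above 0 per library. Mitochondrial transcripts made up 3.67 to 6.37% of TPM. Libraries of a group correlated with each other at 0.941 to 0.979 across genes, which are not independent replicates. BLM_DMSO replicate 1 stood apart on the leading principal components, with scores of 95.9 and 56.6, against -13.7, 2.2 and -25.6 in BLM_BT2 lungs and 48.9 and 56.8 in the other BLM_DMSO lungs on the first of them. The summed level of 15 alveolar type 2 markers was 2800 TPM in that library. The counts depended strongly on single libraries. Higher genes numbered 189, 597 and 68 without BLM_BT2 replicate 1, 2 or 3. Leaving out BLM_DMSO replicate 1, 2 or 3 gave 487, 3375 and 1689, and leaving out PBS_DMSO replicate 1, 2 or 3 gave 525, 630 and 588. Lower genes numbered 145, 797 and 56 without BLM_BT2 replicate 1, 2 or 3. Dropping BLM_DMSO replicate 1, 2 or 3 gave 420, 1552 and 930, and leaving out PBS_DMSO replicate 1, 2 or 3 gave 486, 563 and 491. In all 9 of these fits 65 of the 1151 higher genes (5.65%) and 49 of the 982 lower genes (4.99%) were called in the same direction. Lungs are mixtures, so fewer cells of a type and less RNA per cell cannot be told apart in any value here.

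Few transcripts of the targeted pathway passed the test. Bckdk, the kinase that BT2 inhibits, was measured at 40.2, 40.8 and 35.2 TPM in BLM_BT2 lungs, against 44.4, 43.5 and 56 TPM in BLM_DMSO lungs and 29.5, 35.6 and 32.9 TPM in PBS_DMSO lungs. The ranges of the treated and untreated bleomycin lungs did not overlap, with treated lungs lower, but the difference of -0.3 log2, SE 0.15, adjusted p = 0.21 did not pass. Bckdha (0.55 log2, adjusted p = 0.23), Bckdhb (0.04 log2, adjusted p = 0.922) and Dbt (-0.2 log2, adjusted p = 0.497), which encode subunits of BCKDH, and Ppm1k (0.47 log2, adjusted p = 0.301), its phosphatase, did not pass either. Among the 9 transaminase and BCKDH genes 1 was lower and 0 higher, with a median of 0.04 log2, which becomes -0.14 log2 when the trend with transcript length and GC content is removed. That gene was Bcat1, the cytosolic transaminase, at 0.143, 0.491 and 0.178 TPM in BLM_BT2 lungs, against 1.14, 1.75 and 1.94 TPM in BLM_DMSO lungs and 0.11, 0.0163 and 0.156 TPM in PBS_DMSO lungs. It reached 1 TPM only in the BLM_DMSO lungs and so was tested only through the group in which it was high, which fixes the direction of its difference (-1.04 log2, SE 0.23, adjusted p = 0.0269, and adjusted p = 0.0323 with no filter). The mitochondrial transaminase Bcat2, at 45.8, 43.7 and 43 TPM in BLM_BT2 lungs, against 37.7, 42.3 and 44.1 TPM in BLM_DMSO lungs, did not pass (adjusted p = 0.644). Of all genes tested 6.34% were higher. Of 20 genes of the later steps of leucine, isoleucine and valine oxidation, 2 were higher and 0 lower, with a median of 0.30 log2. They were Ivd, the dehydrogenase of the leucine branch (0.96 log2, SE 0.23, adjusted p = 0.0295), and Mmaa, which loads the cobalamin cofactor of methylmalonyl-CoA mutase (1.03 log2, SE 0.19, adjusted p = 0.0149). With each of the 9 libraries left out in turn, 0 of the 3 calls named here held every time. Lost calls were 3 without BLM_BT2 replicate 1 (adjusted p up to 0.095), 3 without BLM_BT2 replicate 3 (adjusted p up to 0.117) and 2 without BLM_DMSO replicate 1 (adjusted p up to 0.0536). Also lost were 2 without PBS_DMSO replicate 1 (adjusted p up to 0.052), 1 without BLM_DMSO replicate 2, where the gene fell below the filter and 1 without BLM_DMSO replicate 3, where the gene fell below the filter.

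Of the genes that bleomycin had moved in the other lung experiments, a part moved the opposite way with BT2. These genes had passed in both the water and the diet experiment, in BLM_NW against PBS_NW and in BLM_ND against PBS_ND lungs, each time with a difference of 1 log2 or more and with 1 sign. Neither experiment shares a library with the BT2 experiment. In BLM_DMSO against PBS_DMSO lungs 17.3% of genes tested were higher and 13.3% lower. Of 699 genes raised elsewhere, 20 were higher with BT2 (2.86%) and 154 lower (22%), 520 differences were negative, and the median was -0.43 log2, against 0.12 log2 for all genes. Over the same genes BLM_DMSO stood a median of 1.67 log2 above PBS_DMSO, with 535 higher, and BLM_BT2 stood 1.21 log2 above PBS_DMSO, with 323 higher, where 4.13% of all genes tested were higher and 1.17% lower. These 2 differences share the PBS_DMSO libraries. By library, the median of these genes over the PBS_DMSO mean was 0.93, 1.71 and 0.98 log2 in BLM_BT2 lungs and 1.41, 1.94 and 1.73 log2 in BLM_DMSO lungs, so the groups overlapped through BLM_BT2 replicate 2. Of 161 genes lowered elsewhere, 56 were higher with BT2 (34.8%) and 1 was lower (0.621%), 152 differences were positive, and the median was 1.08 log2. Their library medians over the PBS_DMSO mean were -1.06, -1.26 and -0.70 log2 in BLM_BT2 lungs and -2.37, -2.16 and -1.38 log2 in BLM_DMSO lungs, and the groups did not overlap. The 154 lower genes of the raised set numbered 48, 208 and 25 without BLM_BT2 replicate 1, 2 or 3. In fits without BLM_DMSO replicate 1, 2 or 3 there were 101, 169 and 154, and without PBS_DMSO replicate 1, 2 or 3 there were 107, 114 and 113. The 56 higher genes of the lowered set numbered 19, 54 and 8 without BLM_BT2 replicate 1, 2 or 3. With the loss of BLM_DMSO replicate 1, 2 or 3 the number was 34, 54 and 97, and without PBS_DMSO replicate 1, 2 or 3 it was 36, 45 and 38. The single lower gene of the lowered set was Uchl1, a neuronal ubiquitin hydrolase (-1.0 log2, adjusted p = 0.028), named after its value was seen. Lower genes of that set numbered 0, 0 and 0 without BLM_BT2 replicate 1, 2 or 3. Without BLM_DMSO replicate 1, 2 or 3 there were 0, 1 and 1, and without PBS_DMSO replicate 1, 2 or 3 there were 0, 1 and 1. The 20 rises in the raised set numbered 6, 7 and 3 without BLM_BT2 replicate 1, 2 or 3. Fits that omitted BLM_DMSO replicate 1, 2 or 3 gave 8, 57 and 28, and those that omitted PBS_DMSO replicate 1, 2 or 3 gave 9, 10 and 10.

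**Figure D1:**
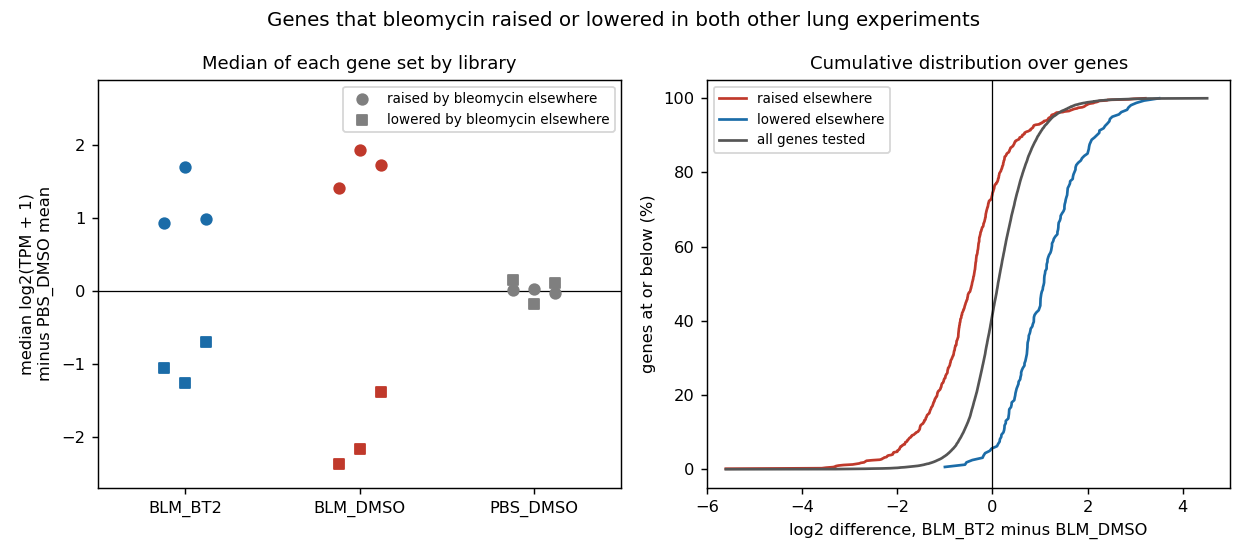
Left, the median log2(TPM + 1) difference from the PBS_DMSO mean for genes raised (circles, 699) or lowered (squares, 161) by bleomycin in both other lung experiments, 1 point per library. Right, the cumulative percentage of genes by their BLM_BT2 minus BLM_DMSO log2 difference; the raised genes lie left of all genes tested (medians -0.43 and 0.12) and the lowered genes right (median 1.08).

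Macrophage genes were among the largest falls. Arg1 encodes arginase 1, which turns arginine to ornithine and marks injury-associated macrophages. It was at 7.1, 13.7 and 4.52 TPM in BLM_BT2 lungs, against 806, 295 and 315 TPM in BLM_DMSO lungs and 1.25, 1.5 and 2.41 TPM in PBS_DMSO lungs. No BLM_BT2 lung came near a BLM_DMSO lung, and the difference was -5.6 log2, SE 0.44, adjusted p = 0.00172. Vsig4, a complement receptor of tissue macrophages, was at 0.199, 0.213 and 0.608 TPM in BLM_BT2 lungs, against 37.6, 20.5 and 19.5 TPM in BLM_DMSO lungs and 0.0987, 0.306 and 0.0979 TPM in PBS_DMSO lungs. The treated lungs lay within the range of the uninjured ones except for BLM_BT2 replicate 3, and the difference from BLM_DMSO was -4.28 log2, SE 0.28, adjusted p = 0.000769. The gene passed the filter only through the BLM_DMSO lungs, and with no filter the adjusted p was 0.0095. Spp1, osteopontin, which scar-associated macrophages secrete, was at 1174, 2272 and 1220 TPM in BLM_BT2 lungs, against 17540, 14550 and 8562 TPM in BLM_DMSO lungs and 159, 448 and 274 TPM in PBS_DMSO lungs. Treated lungs stood below every BLM_DMSO lung and above every PBS_DMSO lung, with differences of -3.13 log2, SE 0.42, adjusted p = 0.00681 from BLM_DMSO and 2.46 log2, adjusted p = 0.0128 from PBS_DMSO. F13a1, the coagulation factor XIII subunit carried by monocytes and resident macrophages, fell to 7.5, 4.99 and 9.57 TPM in BLM_BT2 lungs, against 90.0, 57.8 and 67.8 TPM in BLM_DMSO lungs. BLM_BT2 minus BLM_DMSO came to -3.14 log2 (SE 0.27, adjusted p = 0.00214). Mrc1, the mannose receptor, was at 32, 51 and 32.4 TPM in BLM_BT2 lungs, against 218, 208 and 128 TPM in BLM_DMSO lungs. The BT2 difference was -2.23 log2 (SE 0.24, adjusted p = 0.00306). Folr2, a folate receptor of perivascular macrophages, was at 2.1, 1.63 and 1.56 TPM in BLM_BT2 lungs, against 10.4, 10.4 and 14 TPM in BLM_DMSO lungs. This was a difference of -2.18 log2 (SE 0.3, adjusted p = 0.00712). Neither gene overlapped between the groups. Among these 6 named calls, 5 held whichever of the 9 libraries was left out (Arg1, Spp1, F13a1, Mrc1 and Folr2). The losses were 1 without BLM_DMSO replicate 1, where the gene fell below the filter, 1 without BLM_DMSO replicate 2, where the gene fell below the filter and 1 without BLM_DMSO replicate 3, where the gene fell below the filter.

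Part of the markers of scar-associated and interstitial macrophages fell, and those of alveolar macrophages were mixed. Of 15 markers of scar-associated macrophages 7 were lower and 0 higher, with a median of -0.87 log2. Their summed level was 5708, 9299 and 5475 TPM in BLM_BT2 lungs, against 30640, 22640 and 23070 TPM in BLM_DMSO lungs and 2280, 2524 and 2259 TPM in PBS_DMSO lungs. In BLM_DMSO lungs most of this sum was Spp1 and Apoe, the lipid carrier (-1.51 log2, adjusted p = 0.042). Trem2, a lipid-sensing receptor, fell as well (-1.48 log2, adjusted p = 0.0246). Smaller falls were of Mmp14, a membrane collagenase (-0.99 log2), Syngr1 (-0.95 log2) and Cd63 (-0.87 log2). Mmp12, macrophage elastase and a member of the same list, was at 207, 120 and 34.3 TPM in BLM_BT2 lungs, against 12.6, 97.4 and 9.51 TPM in BLM_DMSO lungs and 1.01, 1.93 and 1.49 TPM in PBS_DMSO lungs. Its bleomycin groups overlapped, with BLM_DMSO replicate 2 inside the treated range, and the difference of 1.99 log2, SE 0.83, adjusted p = 0.13 did not pass. Of 16 monocyte and interstitial macrophage markers 8 were lower and 0 higher (median -1.29 log2). Beside Mrc1 and Folr2 these were the complement subunits C1qa, C1qb and C1qc (-1.89, -1.96 and -1.93 log2), the integrin Itgam (-1.98), the Fc receptor Fcgr1 (-1.56) and Adgre1, the F4/80 antigen (-1.54). Lower scar-associated markers numbered 3, 6 and 2 without BLM_BT2 replicate 1, 2 or 3. Dropping BLM_DMSO replicate 1, 2 or 3 gave 3, 7 and 4, and leaving out PBS_DMSO replicate 1, 2 or 3 gave 4, 5 and 4. Lower monocyte and interstitial markers numbered 3, 7 and 2 without BLM_BT2 replicate 1, 2 or 3. In fits without BLM_DMSO replicate 1, 2 or 3 there were 6, 9 and 9, and without PBS_DMSO replicate 1, 2 or 3 there were 8, 8 and 8. Markers of alveolar macrophages, which live in the airspace, were mixed, with 4 of 16 higher, 1 lower and a median of 0.85 log2. Ear1 (2.46 log2, adjusted p = 0.0362), Fabp1 (2.02 log2, adjusted p = 0.0105), Krt79 (1.48 log2, adjusted p = 0.0149) and Siglecf (1.01 log2, adjusted p = 0.0289) were higher, and Chil3, a chitinase-like protein, was lower (-1.33 log2, adjusted p = 0.042). Higher alveolar macrophage markers numbered 1, 2 and 0 without BLM_BT2 replicate 1, 2 or 3. With the loss of BLM_DMSO replicate 1, 2 or 3 the number was 3, 7 and 6, and without PBS_DMSO replicate 1, 2 or 3 it was 2, 2 and 2. The scavenger receptors Msr1 (-2.33 log2, adjusted p = 0.00373) and Cd163 (-2.06 log2, adjusted p = 0.00373) and the ficolin Fcna (-2.66 log2, adjusted p = 0.00401), chosen after their values were seen, fell as well. Leaving out any 1 of the 9 libraries kept 3 of these 19 named calls (Msr1, Cd163 and Fcna). Those not held were 16 without BLM_BT2 replicate 3 (adjusted p up to 0.162), 12 without BLM_BT2 replicate 1 (adjusted p up to 0.136), 7 without BLM_DMSO replicate 1 (adjusted p up to 0.104), 6 without PBS_DMSO replicate 1 (adjusted p up to 0.0739) and 6 without PBS_DMSO replicate 3 (adjusted p up to 0.0691). Besides, there were 5 without BLM_BT2 replicate 2 (adjusted p up to 0.103), 5 without PBS_DMSO replicate 2 (adjusted p up to 0.0717), 4 without BLM_DMSO replicate 3 (adjusted p up to 0.077) and 2 without BLM_DMSO replicate 2 (adjusted p up to 0.0663).

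**Figure D2:**
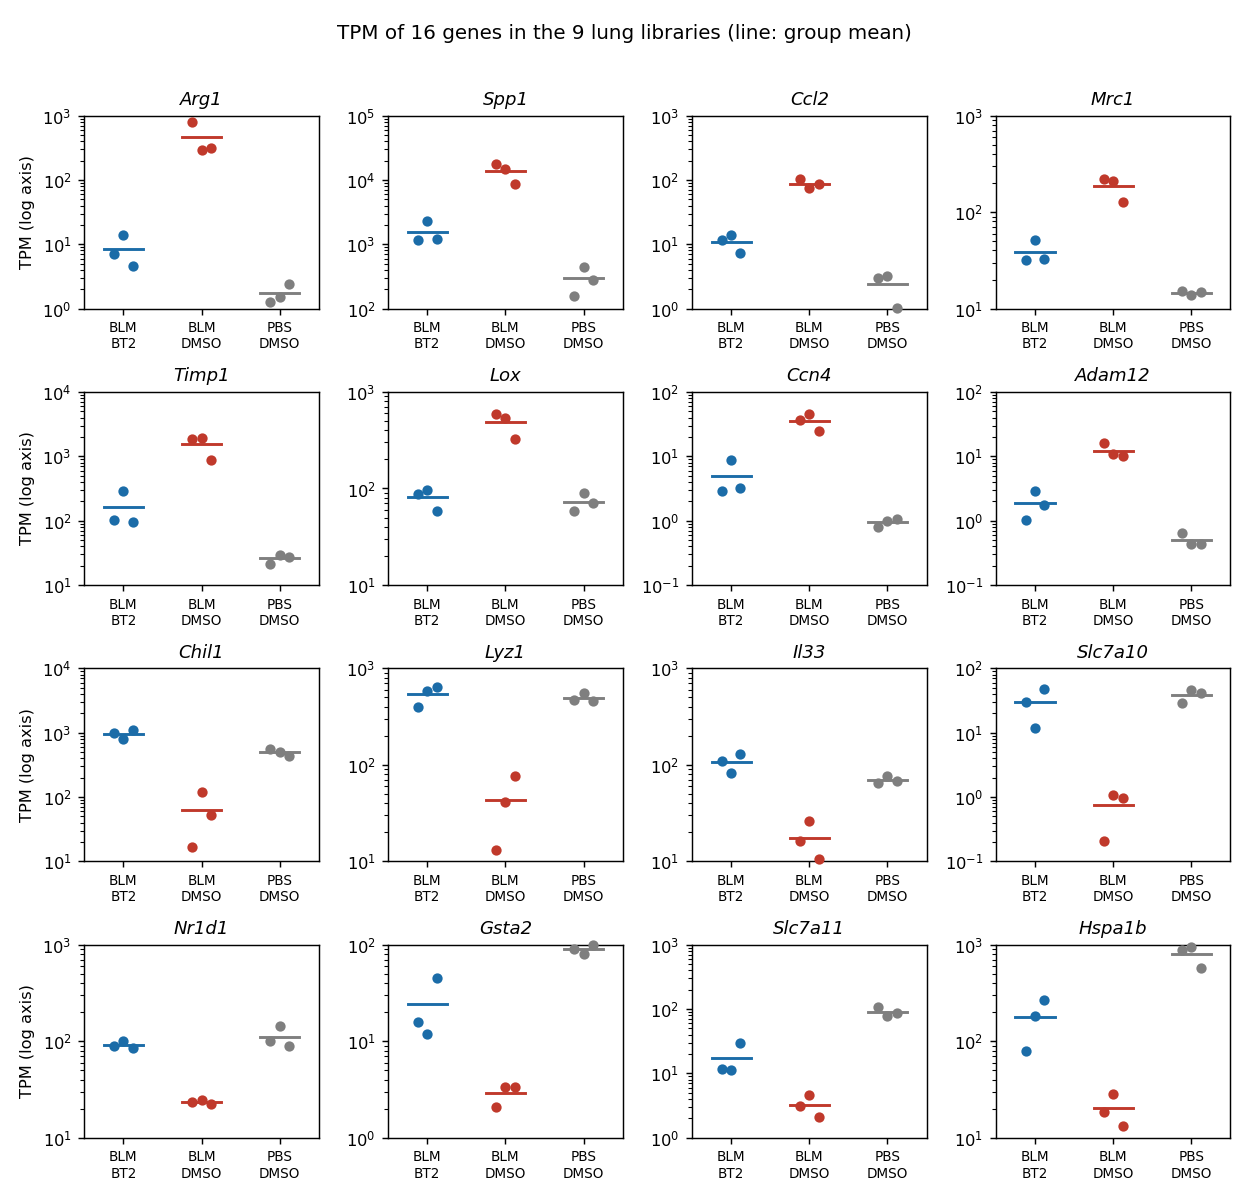
TPM on a log axis of 16 genes in each of the 9 lung libraries, 1 point per library, with the group mean as a line, BLM_BT2 left, BLM_DMSO in the middle and PBS_DMSO right. In every panel the 3 BLM_BT2 and 3 BLM_DMSO points do not overlap, as for Arg1 (4.52 to 13.7 TPM against 295 to 806 TPM).

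The chemokines Ccl2 and Ccl7 fell. Ccl2, the main ligand of the monocyte receptor CCR2, was at 11.7, 13.7 and 7.27 TPM in BLM_BT2 lungs, against 103, 73.9 and 85.8 TPM in BLM_DMSO lungs and 2.96, 3.2 and 1.02 TPM in PBS_DMSO lungs. Between the bleomycin groups it differed by -2.93 log2 (SE 0.32, adjusted p = 0.00306). Ccl7, which acts on the same receptor, was at 7.94, 9.45 and 11.1 TPM in BLM_BT2 lungs, against 68, 46.8 and 81.3 TPM in BLM_DMSO lungs and 3.66, 4.92 and 3.08 TPM in PBS_DMSO lungs. The difference between the bleomycin groups was -2.64 log2 (SE 0.24, adjusted p = 0.00241). In both, treated lungs lay between the other groups without overlap. Of 21 CC chemokines and receptors 6 were lower and 0 higher (median -0.43 log2). The others were Ccl8 (-1.77 log2), Ccl24 (-1.5), Ccl9 (-0.96) and the receptor Ccr1 (-1.42). Ccl12, another ligand of CCR2 in mice, did not pass (-1.43 log2, adjusted p = 0.101). Of 18 CXC chemokines and receptors 2 were lower and 3 higher, and their median of 0.25 log2 turned to -0.06 log2 without BLM_DMSO replicate 1. Higher members of that list numbered 2, 3 and 0 without BLM_BT2 replicate 1, 2 or 3. They numbered 3, 4 and 6 without BLM_DMSO replicate 1, 2 or 3, and 3 without any 1 PBS_DMSO library. Cxcl13, the B cell attractant, fell (-1.52 log2, adjusted p = 0.0375) while its receptor Cxcr5 rose (2.55 log2, adjusted p = 0.0194). The platelet chemokines split, with Ppbp higher (3.02 log2, adjusted p = 0.017) and Pf4, which macrophages also express, lower (-1.03 log2, adjusted p = 0.0426). Cxcl15, made by lung epithelium, rose (2.07 log2, adjusted p = 0.0155). Of 17 interleukins and inflammatory cytokines, Il6 (-1.67 log2, adjusted p = 0.0121) and Tnfsf11 (-1.03 log2, adjusted p = 0.0237) fell and Il33, an alarmin stored in nuclei of alveolar type 2 cells, rose. Il33 was at 109, 81.9 and 129 TPM in BLM_BT2 lungs, against 16.1, 26 and 10.6 TPM in BLM_DMSO lungs and 64.4, 75.8 and 68.8 TPM in PBS_DMSO lungs. BLM_BT2 minus BLM_DMSO came to 2.6 log2 (SE 0.29, adjusted p = 0.00306). The bleomycin groups did not overlap. Of 20 complement genes 4 were lower, the 3 C1q chains and the receptor C3ar1 (-1.37 log2, adjusted p = 0.0433). The 2 higher were C6 (1.57 log2, adjusted p = 0.0351) and C7 (1.96 log2, adjusted p = 0.0456), which join the terminal pore. Hc, complement C5, is not on this list and is given below with the alveolar type 2 markers. Higher complement genes numbered 0, 1 and 0 without BLM_BT2 replicate 1, 2 or 3. They numbered 1, 4 and 5 without BLM_DMSO replicate 1, 2 or 3, and 0 without any 1 PBS_DMSO library. Of 12 acute phase genes Saa3 fell (-1.44 log2, adjusted p = 0.03), and Itih4 (1.87 log2, adjusted p = 0.00973), Lcn2 (1.08 log2, adjusted p = 0.0361) and haptoglobin, Hp (0.72 log2, adjusted p = 0.0343), rose. Of the 21 genes named here as higher or lower, 4 were called without each of the 9 libraries in turn (Ccl2, Ccl7, Il33 and Itih4). Calls lost numbered 17 without BLM_BT2 replicate 3 (adjusted p up to 0.171), 14 without BLM_BT2 replicate 1 (adjusted p up to 0.142), 11 without PBS_DMSO replicate 1 (adjusted p up to 0.0765), 10 without BLM_DMSO replicate 1 (adjusted p up to 0.107) and 10 without PBS_DMSO replicate 3 (adjusted p up to 0.076). Smaller losses were 8 without PBS_DMSO replicate 2 (adjusted p up to 0.0733), 4 without BLM_BT2 replicate 2 (adjusted p up to 0.0859), 4 without BLM_DMSO replicate 3 (adjusted p up to 0.085) and 2 without BLM_DMSO replicate 2 (adjusted p up to 0.0682).

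Matrix genes fell in breadth. Of 18 interstitial collagens 9 were lower and 0 higher, with a median of -1.35 log2, where BLM_DMSO stood a median of 2.33 log2 above PBS_DMSO. The summed level was 1065, 2671 and 1640 TPM in BLM_BT2 lungs, against 3590, 4331 and 4215 TPM in BLM_DMSO lungs and 497, 407 and 472 TPM in PBS_DMSO lungs. Treated lungs were between the other groups. Col1a1, which encodes the α1 chain of type I collagen, was at 191, 698 and 342 TPM in BLM_BT2 lungs, against 936, 1258 and 1155 TPM in BLM_DMSO lungs and 71.7, 43.7 and 70.8 TPM in PBS_DMSO lungs. The nearest pair of lungs was BLM_BT2 replicate 2 and BLM_DMSO replicate 1, and the difference was -1.63 log2, SE 0.4, adjusted p = 0.0341. Col1a2 (-1.71 log2, adjusted p = 0.0182) and Col3a1 (-1.32 log2, adjusted p = 0.0454) fell too. The type V chains, which seed fibril assembly, fell most among the 18 collagens, Col5a3 (-2.29 log2, adjusted p = 0.0122), Col5a1 (-2.1 log2, adjusted p = 0.0128) and Col5a2 (-2.0 log2, adjusted p = 0.0133). Col6a3 was next (-1.79 log2, adjusted p = 0.0101). Col12a1 (-1.56 log2) and Col11a1 (-1.46 log2) made up the rest. Col11a1 reached 1 TPM only in the BLM_DMSO lungs, which fixes the direction of its difference. The number of lower collagens was 4, 11 and 0 without BLM_BT2 replicate 1, 2 or 3. Without BLM_DMSO replicate 1, 2 or 3 there were 5, 8 and 7, and without PBS_DMSO replicate 1, 2 or 3 there were 7, 8 and 7. With each of the 9 libraries left out in turn, 0 of the 9 calls named here held every time. Lost calls were 9 without BLM_BT2 replicate 3 (adjusted p up to 0.129), 5 without BLM_BT2 replicate 1 (adjusted p up to 0.0978), 4 without BLM_DMSO replicate 1 (adjusted p up to 0.0995) and 3 without BLM_DMSO replicate 3 (adjusted p up to 0.0786). Also lost were 2 without PBS_DMSO replicate 1 (adjusted p up to 0.0721), 2 without PBS_DMSO replicate 3 (adjusted p up to 0.069), 1 without BLM_DMSO replicate 2, where the gene fell below the filter and 1 without PBS_DMSO replicate 2 (adjusted p up to 0.0654).

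Matricellular and provisional matrix genes fell in 12 of 23 members, all 23 differences were negative, and the median was -1.35 log2. Fbln2, an elastic-fibre fibulin, was at 6.66, 29.2 and 10.3 TPM in BLM_BT2 lungs, against 118, 97.1 and 99.8 TPM in BLM_DMSO lungs. The BT2 difference was -2.94 log2 (SE 0.43, adjusted p = 0.00872). Tnc, tenascin C, was at 14.4, 83.4 and 31.6 TPM in BLM_BT2 lungs, against 316, 345 and 129 TPM in BLM_DMSO lungs. This was a difference of -2.8 log2 (SE 0.57, adjusted p = 0.0206). Ccn4, a secreted WNT target, was at 2.9, 8.84 and 3.24 TPM in BLM_BT2 lungs, against 36.4, 45.9 and 24.4 TPM in BLM_DMSO lungs. Between the bleomycin groups it differed by -2.7 log2 (SE 0.36, adjusted p = 0.00645). BLM_BT2 replicate 2 was the highest treated lung in all 3, still below each BLM_DMSO lung. Thbs1 (-2.65 log2), Eln (-2.09), Fn1 (-1.84), Fbn1 (-1.84), Vcan (-1.8), Tgfbi (-1.44), Bgn (-1.02) and Cthrc1 (-1.84), a marker of activated fibroblasts, were the others besides Spp1. Postn, periostin, was at 76.9, 92.8 and 90.2 TPM in BLM_BT2 lungs, against 119, 158 and 99.9 TPM in BLM_DMSO lungs, and its difference of -0.51 log2, SE 0.19, adjusted p = 0.102 did not pass. The number of lower members was 3, 16 and 3 without BLM_BT2 replicate 1, 2 or 3. Leaving out BLM_DMSO replicate 1, 2 or 3 gave 8, 15 and 15, and leaving out PBS_DMSO replicate 1, 2 or 3 gave 11, 11 and 11. Among these 11 named calls, 2 held whichever of the 9 libraries was left out (Fbln2 and Ccn4). The losses were 9 without BLM_BT2 replicate 1 (adjusted p up to 0.111), 9 without BLM_BT2 replicate 3 (adjusted p up to 0.129) and 4 without BLM_DMSO replicate 1 (adjusted p up to 0.0707). Added to these were 1 without PBS_DMSO replicate 1 (adjusted p up to 0.0596), 1 without PBS_DMSO replicate 2 (adjusted p up to 0.0577) and 1 without PBS_DMSO replicate 3 (adjusted p up to 0.0571).

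Of 23 genes that process collagen 8 were lower and 1 higher, with a median of -0.56 log2. Lox, lysyl oxidase, which cross-links collagen and elastin, was at 88.4, 96.4 and 58.1 TPM in BLM_BT2 lungs, against 586, 542 and 323 TPM in BLM_DMSO lungs and 58.6, 89.5 and 71.2 TPM in PBS_DMSO lungs. Treated lungs spanned about the same levels as uninjured lungs, and the difference from BLM_DMSO was -2.55 log2, SE 0.27, adjusted p = 0.00306. Its relatives Loxl2 (-2.0 log2, adjusted p = 0.00875) and Loxl1 (-1.24 log2, adjusted p = 0.0226) fell. So did the prolyl hydroxylase P4ha3 (-1.83 log2, adjusted p = 0.0138) and the chaperone Fkbp10 (-1.4 log2, adjusted p = 0.0108), with smaller falls of Adamts2, Crtap and Adamts14 (-1.16, -0.85 and -0.73 log2). Pcolce2, an enhancer of procollagen cleavage, rose (0.89 log2, adjusted p = 0.0138). Of 22 proteases and inhibitors 10 were lower and 0 higher (median -0.76 log2). Timp1, an inhibitor of metalloproteinases, was at 101, 290 and 96.4 TPM in BLM_BT2 lungs, against 1861, 1897 and 880 TPM in BLM_DMSO lungs and 21.4, 29.4 and 27.6 TPM in PBS_DMSO lungs. The lowest BLM_DMSO lung was above the highest treated lung, and the difference was -3.36 log2, SE 0.43, adjusted p = 0.00553. The metalloproteinases Adam12 (-2.21 log2, adjusted p = 0.00573), Adamts4 (-1.82 log2, adjusted p = 0.0424), Mmp3 (-1.74 log2, adjusted p = 0.0434) and Mmp13 (-1.51 log2, adjusted p = 0.0352) fell. Smaller falls were those of the lysosomal proteases Ctsl (-1.31 log2), Ctss (-0.94) and Ctsb (-0.75). Lower processing genes numbered 3, 10 and 1 without BLM_BT2 replicate 1, 2 or 3. Fits that omitted BLM_DMSO replicate 1, 2 or 3 gave 5, 7 and 10, and those that omitted PBS_DMSO replicate 1, 2 or 3 gave 7, 7 and 7. Lower proteases and inhibitors numbered 3, 10 and 2 without BLM_BT2 replicate 1, 2 or 3. In fits without BLM_DMSO replicate 1, 2 or 3 there were 3, 8 and 9, and without PBS_DMSO replicate 1, 2 or 3 there were 3, 4 and 4. Leaving out any 1 of the 9 libraries kept 3 of these 17 named calls (Lox, Timp1 and Adam12). Those not held were 14 without BLM_BT2 replicate 3 (adjusted p up to 0.167), 11 without BLM_BT2 replicate 1 (adjusted p up to 0.13), 8 without BLM_DMSO replicate 1 (adjusted p up to 0.122), 6 without PBS_DMSO replicate 1 (adjusted p up to 0.0793) and 5 without PBS_DMSO replicate 2 (adjusted p up to 0.0715). Besides, there were 5 without PBS_DMSO replicate 3 (adjusted p up to 0.0722), 2 without BLM_DMSO replicate 2 (adjusted p up to 0.0554), 1 without BLM_BT2 replicate 2 (adjusted p up to 0.0623) and 1 without BLM_DMSO replicate 3 (adjusted p up to 0.0504).

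Contractile genes were lower in 6 of 20 members, with a median of -0.21 log2. Acta2, smooth muscle actin, which myofibroblasts share with airway and vessel muscle, was at 193, 372 and 312 TPM in BLM_BT2 lungs, against 868, 664 and 726 TPM in BLM_DMSO lungs and 391, 260 and 542 TPM in PBS_DMSO lungs. The difference between the bleomycin groups was -1.4 log2 (SE 0.3, adjusted p = 0.0235). Treated lungs overlapped the uninjured lungs and not the BLM_DMSO lungs. Tpm2, Des, Cald1, Pdlim7 and Tpm1 also fell (-1.34, -1.28, -1.24, -0.87 and -0.8 log2). Of 22 genes of the TGF-β and SMAD list 4 were lower and 1 higher (median -0.33 log2). Inhba, the activin A subunit, was at 1.85, 3.18 and 1.48 TPM in BLM_BT2 lungs, against 18.3, 28.8 and 8.96 TPM in BLM_DMSO lungs without overlap. BLM_BT2 minus BLM_DMSO came to -2.53 log2 (SE 0.39, adjusted p = 0.00973). Ltbp1 (-1.12 log2, adjusted p = 0.013), which stores latent TGF-β, Pmepa1 (-1.07 log2, adjusted p = 0.0221), a SMAD target, and Itgav (-0.83 log2, adjusted p = 0.0297), an integrin that releases TGF-β, fell. Ltbp4, another latency protein, rose (1.15 log2, adjusted p = 0.0133). Tgfb1 (-0.4 log2, adjusted p = 0.232) and Ccn2 (-1.21 log2, adjusted p = 0.0612) had negative differences that did not pass. Of 19 basement membrane genes Nid1 (-1.13 log2, adjusted p = 0.0286), Lamb1 (-0.9 log2, adjusted p = 0.017) and Lamc1 (-0.76 log2, adjusted p = 0.0438) were lower, while 8 differences were positive and the median was -0.27 log2. The basement membrane list, without BLM_DMSO replicate 2, had 7 higher and 2 lower members, and its median turned to 0.16 log2. In the same fit the TGF-β list had 4 higher. Lower contractile genes numbered 0, 7 and 0 without BLM_BT2 replicate 1, 2 or 3. With the loss of BLM_DMSO replicate 1, 2 or 3 the number was 2, 7 and 6, and without PBS_DMSO replicate 1, 2 or 3 it was 5, 6 and 5. Of the 14 genes named here as higher or lower, 0 were called without each of the 9 libraries in turn. Calls lost numbered 14 without BLM_BT2 replicate 3 (adjusted p up to 0.147), 12 without BLM_BT2 replicate 1 (adjusted p up to 0.136), 6 without BLM_DMSO replicate 1 (adjusted p up to 0.0935) and 4 without PBS_DMSO replicate 1 (adjusted p up to 0.0726). Smaller losses were 3 without PBS_DMSO replicate 2 (adjusted p up to 0.0695), 3 without PBS_DMSO replicate 3 (adjusted p up to 0.0703) and 1 without BLM_DMSO replicate 2 (adjusted p up to 0.0509).

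Crct1, Ereg and Mmp10 had other large falls. Crct1, a gene of the epidermal differentiation complex, was at 0.747, 1.79 and 0.76 TPM in BLM_BT2 lungs, against 43.5, 20.2 and 14.7 TPM in BLM_DMSO lungs and 0, 0 and 0 TPM in PBS_DMSO lungs. The BT2 difference was -3.59 log2 (SE 0.37, adjusted p = 0.00306). Ereg, epiregulin, a ligand of the EGF receptor, was at 1.4, 3.74 and 1.28 TPM in BLM_BT2 lungs, against 48.2, 44 and 15.8 TPM in BLM_DMSO lungs and 0.71, 0.257 and 0.317 TPM in PBS_DMSO lungs. This was a difference of -3.5 log2 (SE 0.43, adjusted p = 0.00496). Mmp10, stromelysin 2, was at 0.172, 3.39 and 0.786 TPM in BLM_BT2 lungs, against 19.8, 22.6 and 16.5 TPM in BLM_DMSO lungs and 0, 0 and 0 TPM in PBS_DMSO lungs. Between the bleomycin groups it differed by -3.29 log2 (SE 0.41, adjusted p = 0.00508). Each had all treated lungs below all BLM_DMSO lungs, and Crct1 and Mmp10 were listed at 0 in every PBS_DMSO lung. The gut peptide gene Pyy (-3.23 log2, adjusted p = 0.00241), the TGF-β co-receptor Cd109 (-2.98 log2, adjusted p = 0.00241) and the metallothionein Mt2 (-3.12 log2, adjusted p = 0.0149) completed the 12 largest falls. The predicted genes Gm6093 (-3.64 log2, adjusted p = 0.00608) and Gm41724 (-3.3 log2, adjusted p = 0.00306) fell in the same range, and Gm55831 was listed at 0 in all BLM_BT2 lungs and lower too. Gm55831 reached 1 TPM only in the BLM_DMSO lungs, so it was tested only through the group in which it was high. That fixes the direction of its difference. Gm55831 aside, 8 calls are named here. With each of the 9 libraries left out in turn, 7 of them held every time (Crct1, Ereg, Mmp10, Pyy, Cd109, Gm6093 and Gm41724). Lost calls among the 8 were 1 without BLM_BT2 replicate 3 (adjusted p up to 0.075). Gm55831 falls below the filter once any BLM_DMSO library is left out.

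Alveolar epithelial genes were among the largest rises. All 15 alveolar type 2 markers were higher, with a median of 2.18 log2 and a range of 1.53 to 4.51 log2. Their summed level was 81500, 47490 and 69020 TPM in BLM_BT2 lungs, against 2800, 17280 and 11150 TPM in BLM_DMSO lungs and 62380, 61470 and 49330 TPM in PBS_DMSO lungs. Treated lungs were in or near the uninjured range. Sftpc alone was at 64570, 35590 and 54470 TPM in BLM_BT2 lungs, against 1523, 12050 and 7603 TPM in BLM_DMSO lungs and 52780, 51740 and 40790 TPM in PBS_DMSO lungs. The difference between the bleomycin groups was 3.27 log2 (SE 0.69, adjusted p = 0.0224). Hc, complement C5, was at 173, 113 and 224 TPM in BLM_BT2 lungs, against 1.34, 19 and 7.08 TPM in BLM_DMSO lungs and 122, 145 and 108 TPM in PBS_DMSO lungs. BLM_BT2 minus BLM_DMSO came to 4.51 log2 (SE 0.62, adjusted p = 0.00704). Chil1, a chitinase-like lectin, was at 990, 809 and 1096 TPM in BLM_BT2 lungs, against 16.8, 121 and 51.7 TPM in BLM_DMSO lungs and 567, 495 and 436 TPM in PBS_DMSO lungs. The BT2 difference was 4.3 log2 (SE 0.54, adjusted p = 0.00508). In each of the 3 genes BLM_DMSO replicate 1 was the lowest of all lungs. The lamellar body protein Lamp3 (3.27 log2, adjusted p = 0.0235) and the phosphate transporter Slc34a2 (3.02 log2, adjusted p = 0.0279) rose. So did the surfactant proteins Sftpa1 (2.76 log2, adjusted p = 0.0101), Sftpb (2.18 log2, adjusted p = 0.0241) and Sftpd (1.9 log2, adjusted p = 0.0145). Smaller rises were of the lipid pump Abca3 (1.68 log2, adjusted p = 0.0285) and the transcription factor Etv5 (1.53 log2, adjusted p = 0.0166). Higher markers numbered 4, 13 and 3 without BLM_BT2 replicate 1, 2 or 3. Without BLM_DMSO replicate 1, 2 or 3 there were 15, 15 and 15, and without PBS_DMSO replicate 1, 2 or 3 there were 15, 15 and 15. Lyz1, a lysozyme whose reads may be shared with its near-identical neighbour Lyz2, was at 395, 584 and 646 TPM in BLM_BT2 lungs, against 13, 41.7 and 75.8 TPM in BLM_DMSO lungs and 466, 553 and 461 TPM in PBS_DMSO lungs. This was a difference of 3.89 log2 (SE 0.5, adjusted p = 0.00553). Lgi3 (3.44 log2, adjusted p = 0.0108) and Rbpjl (3.21 log2, adjusted p = 0.00373) were also among the 12 largest rises. Mir6941 (3.22 log2, adjusted p = 0.013) and Mir7026 (3.16 log2, adjusted p = 0.0181) were too, as short annotated precursors for which a few reads give a high TPM. Sfta2, a surfactant-associated protein (2.41 log2, SE 0.2, adjusted p = 0.00204), and Shh, the epithelial hedgehog ligand (2.18 log2, SE 0.3, adjusted p = 0.00695), were chosen after their values were seen. Among these 17 named calls, 6 held whichever of the 9 libraries was left out (Hc, Chil1, Lyz1, Rbpjl, Sfta2 and Shh). The losses were 11 without BLM_BT2 replicate 3 (adjusted p up to 0.101), 7 without BLM_BT2 replicate 1 (adjusted p up to 0.0852) and 2 without BLM_BT2 replicate 2 (adjusted p up to 0.0678).

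Other epithelial lists differed in which library their counts rested on. Of 12 club and secretory markers 4 were higher and 0 lower (median 1.79 log2). They were Cyp2f2 (3.5 log2, adjusted p = 0.0151), an airway cytochrome, Scgb1a1 (2.19 log2, adjusted p = 0.0298), Cldn10 (1.52 log2, adjusted p = 0.0382) and Aldh1a1 (1.36 log2, adjusted p = 0.0295). The summed level was 91110, 52890 and 109000 TPM in BLM_BT2 lungs, against 19450, 11950 and 30540 TPM in BLM_DMSO lungs and 133600, 108600 and 155600 TPM in PBS_DMSO lungs. Of 14 ciliated markers limma called 0, with 3 at an unadjusted p under 0.05, and all 14 differences were positive (median 0.98 log2). Hydin had the smallest p (1.15 log2, adjusted p = 0.0823). Summed ciliated markers were at 1147, 1052 and 1240 TPM in BLM_BT2 lungs, against 294.8, 355.6 and 1668 TPM in BLM_DMSO lungs. BLM_DMSO replicate 3 stood above every treated lung, and without it 13 of the 14 were higher. Of 13 markers of alveolar type 1 cells, the thin gas-exchange cells, only Rtkn2 was higher (1.97 log2, adjusted p = 0.0295), a share near the 6.34% of all genes. Ager overlapped between the groups, at 3493, 2718 and 3327 TPM in BLM_BT2 lungs, against 1116, 3160 and 1039 TPM in BLM_DMSO lungs (1.04 log2, adjusted p = 0.0957). Higher type 1 markers numbered 0, 1 and 0 without BLM_BT2 replicate 1, 2 or 3. Leaving out BLM_DMSO replicate 1, 2 or 3 gave 0, 9 and 0, and leaving out PBS_DMSO replicate 1, 2 or 3 gave 0, 1 and 1. Higher club and secretory markers numbered 0, 4 and 0 without BLM_BT2 replicate 1, 2 or 3. Dropping BLM_DMSO replicate 1, 2 or 3 gave 1, 3 and 10, and leaving out PBS_DMSO replicate 1, 2 or 3 gave 1, 2 and 2. Of 14 transitional epithelial markers, genes of cells between type 2 and type 1, Cldn4 (-1.07 log2, adjusted p = 0.043) and Plaur (-0.77 log2, adjusted p = 0.0443) fell, and Krt8, at 534, 685 and 745 TPM in BLM_BT2 lungs, against 607, 723 and 643 TPM in BLM_DMSO lungs, did not pass (-0.02 log2, adjusted p = 0.958). Leaving out any 1 of the 9 libraries kept 0 of these 7 named calls. Those not held were 7 without BLM_BT2 replicate 1 (adjusted p up to 0.132), 7 without BLM_BT2 replicate 3 (adjusted p up to 0.149), 6 without BLM_DMSO replicate 1 (adjusted p up to 0.108), 6 without PBS_DMSO replicate 1 (adjusted p up to 0.0634) and 4 without PBS_DMSO replicate 2 (adjusted p up to 0.0706). Besides, there were 4 without PBS_DMSO replicate 3 (adjusted p up to 0.0676), 2 without BLM_DMSO replicate 2 (adjusted p up to 0.0587), 2 without BLM_DMSO replicate 3 (adjusted p up to 0.0636) and 1 without BLM_BT2 replicate 2 (adjusted p up to 0.0956).

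Markers of resting alveolar and adventitial fibroblasts rose in 7 of 16 members, 0 were called lower, and the median was 0.64 log2. Of the 16 differences 10 were positive and 6 negative, down to -0.81 log2. Pi16, Dpt, Dcn, Col14a1 and Scara5 of this list were not called. Slc7a10, a neutral amino acid exchanger, was at 30.4, 12 and 47.2 TPM in BLM_BT2 lungs, against 0.205, 1.06 and 0.976 TPM in BLM_DMSO lungs and 28.6, 45.4 and 41.8 TPM in PBS_DMSO lungs. Treated lungs overlapped the uninjured range, no BLM_DMSO lung passed 1.06 TPM, and the difference was 3.99 log2, SE 0.44, adjusted p = 0.00306. Inmt, an N-methyltransferase abundant in lung fibroblasts, was at 2780, 1100 and 2217 TPM in BLM_BT2 lungs, against 360, 369 and 585 TPM in BLM_DMSO lungs and 3004, 4096 and 2939 TPM in PBS_DMSO lungs. Between the bleomycin groups it differed by 2.15 log2 (SE 0.35, adjusted p = 0.0109). The lipase Ces1d (2.29 log2, adjusted p = 0.0109), the receptor Fgfr4 (1.77 log2, adjusted p = 0.0163) and Clec3b (1.64 log2, adjusted p = 0.0204) rose as well. Smaller rises were of the lipofibroblast transcription factor Tcf21 (1.57 log2, adjusted p = 0.0218) and Npnt (1.06 log2, adjusted p = 0.0417), an integrin ligand. The list's summed level overlapped, at 7951, 5278 and 6580 TPM in BLM_BT2 lungs and 6746, 6046 and 5253 TPM in BLM_DMSO lungs. The count was 3, 6 and 1 without BLM_BT2 replicate 1, 2 or 3. Fits that omitted BLM_DMSO replicate 1, 2 or 3 gave 5, 8 and 6, and those that omitted PBS_DMSO replicate 1, 2 or 3 gave 6, 6 and 6. Of the 7 genes named here as higher or lower, 1 was called without each of the 9 libraries in turn (Slc7a10). Calls lost numbered 6 without BLM_BT2 replicate 3 (adjusted p up to 0.13), 4 without BLM_BT2 replicate 1 (adjusted p up to 0.114), 2 without BLM_DMSO replicate 1 (adjusted p up to 0.11) and 1 without BLM_BT2 replicate 2 (adjusted p up to 0.0783). Smaller losses were 1 without BLM_DMSO replicate 3 (adjusted p up to 0.0794), 1 without PBS_DMSO replicate 1 (adjusted p up to 0.0684), 1 without PBS_DMSO replicate 2 (adjusted p up to 0.063) and 1 without PBS_DMSO replicate 3 (adjusted p up to 0.0649).

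Most genes of the circadian clock changed. The clock is a loop in which ARNTL (BMAL1) with CLOCK turns on Per, Cry, Nr1d1 and the output factors Dbp, Tef and Hlf through E-box sequences, and PER, CRY and NR1D1 repress in return. Of 16 clock genes 11 were higher and 2 lower with BT2, with a median of 1.01 log2. Nr1d1, which represses Arntl, was at 89.3, 102 and 85.3 TPM in BLM_BT2 lungs, against 23.5, 24.5 and 22.2 TPM in BLM_DMSO lungs and 99.4, 143 and 89.2 TPM in PBS_DMSO lungs. No treated lung overlapped a BLM_DMSO lung, each group was tight, and the difference was 1.93 log2, SE 0.18, adjusted p = 0.00241. Dbp was at 57, 63.8 and 48.5 TPM in BLM_BT2 lungs, against 2.65, 6.15 and 20.4 TPM in BLM_DMSO lungs and 52.4, 72.3 and 45.8 TPM in PBS_DMSO lungs. The difference between the bleomycin groups was 2.79 log2 (SE 0.51, adjusted p = 0.015). Ciart, another repressor of the loop, was at 56.4, 46 and 70.7 TPM in BLM_BT2 lungs, against 8.61, 30.0 and 12 TPM in BLM_DMSO lungs and 114, 134 and 88.4 TPM in PBS_DMSO lungs. BLM_BT2 minus BLM_DMSO came to 1.88 log2 (SE 0.38, adjusted p = 0.02). Both had treated lungs above all BLM_DMSO lungs, with Dbp in the uninjured range and Ciart below it. The repressors Per3 (1.86 log2, adjusted p = 0.0251), Per2 (1.67 log2, adjusted p = 0.0279), Cry2 (0.83 log2, adjusted p = 0.0479) and Per1 (0.82 log2, adjusted p = 0.0208) were higher too. Tef (1.4 log2, adjusted p = 0.0216), Hlf (1.27 log2, adjusted p = 0.0202), Bhlhe41 (1.08 log2, adjusted p = 0.0431) and Nr1d2 (0.94 log2, adjusted p = 0.0201) were the rest. The opposite arm fell. Arntl was at 2.24, 3.29 and 2.22 TPM in BLM_BT2 lungs, against 6.78, 7.36 and 5.22 TPM in BLM_DMSO lungs and 0.935, 1.13 and 1.41 TPM in PBS_DMSO lungs. The BT2 difference was -1.06 log2 (SE 0.23, adjusted p = 0.0229). Nfil3, which competes with DBP, was at 22.8, 27.3 and 24.6 TPM in BLM_BT2 lungs, against 116, 54.9 and 60.6 TPM in BLM_DMSO lungs and 25.3, 19.7 and 21 TPM in PBS_DMSO lungs. This was a difference of -1.51 log2 (SE 0.26, adjusted p = 0.0133). Clock (-0.55 log2, adjusted p = 0.0991), Cry1 (-0.4 log2, adjusted p = 0.24) and Npas2 (-0.18 log2, adjusted p = 0.629) did not pass. The higher genes numbered 1, 9 and 1 without BLM_BT2 replicate 1, 2 or 3. With the loss of BLM_DMSO replicate 1, 2 or 3 the number was 8, 11 and 10, and without PBS_DMSO replicate 1, 2 or 3 it was 9, 9 and 9. The sources used here do not give the hour at which each lung was taken, and its part in these differences was not tested. With each of the 9 libraries left out in turn, 1 of the 13 calls named here held every time (Nr1d1). Lost calls were 12 without BLM_BT2 replicate 1 (adjusted p up to 0.136), 12 without BLM_BT2 replicate 3 (adjusted p up to 0.163), 3 without BLM_DMSO replicate 1 (adjusted p up to 0.0958) and 2 without BLM_BT2 replicate 2 (adjusted p up to 0.0691). Also lost were 2 without PBS_DMSO replicate 1 (adjusted p up to 0.0765), 2 without PBS_DMSO replicate 2 (adjusted p up to 0.0741), 2 without PBS_DMSO replicate 3 (adjusted p up to 0.0722) and 1 without BLM_DMSO replicate 3 (adjusted p up to 0.0589).

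**Figure D3:**
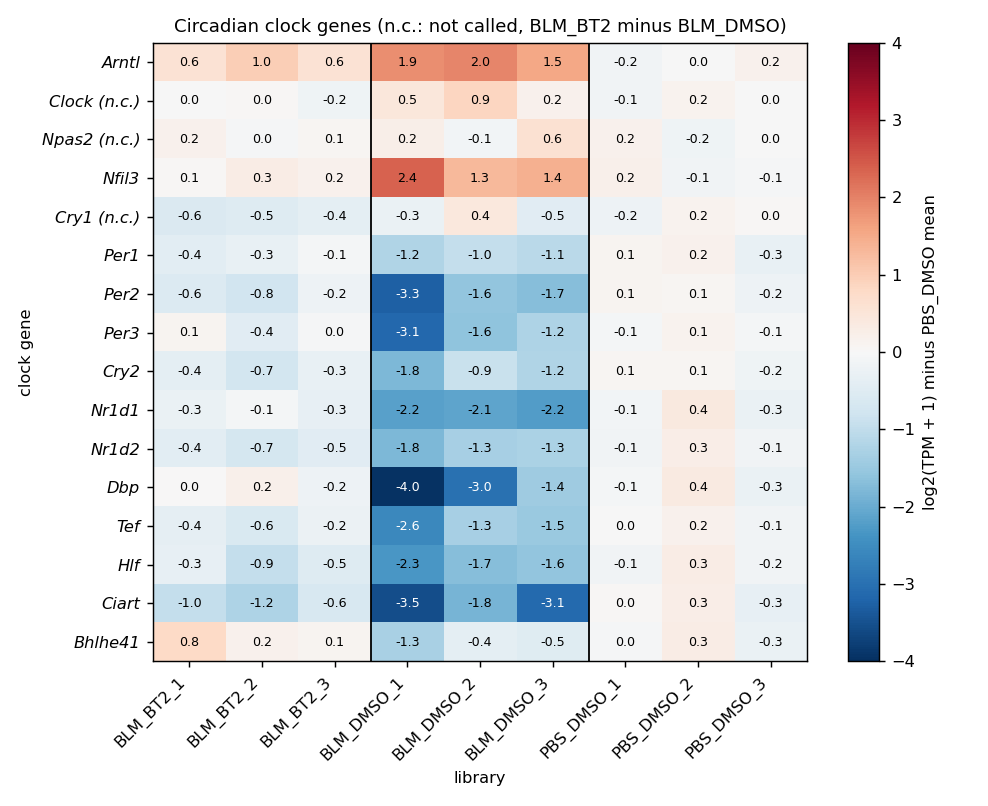
Log2(TPM + 1) of the 16 clock genes in each of the 9 lung libraries, as the difference from the PBS_DMSO mean (colour and printed value); n.c. marks genes not called. Nr1d1 stands at -0.28, -0.09 and -0.34 in the BLM_BT2 columns and at -2.16, -2.10 and -2.23 in the BLM_DMSO columns, and Arntl runs the opposite way.

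Promoters of the clock and amino acid response genes are shown because genes of these lists are known to share binding motifs. RefSeq promoters of build GRCm38.p6, 250 bases before to 50 after the start, matched 12146 of the 18151 tested genes by symbol. The authors' build was mm39, so coordinates are those of the RefSeq table. The E-box CACGTG, the D-box TTATGTAA and the C/EBP-ATF composite TGATGCAA were searched on both strands, and none of them contains another. The E-box was in 5 of 15 clock promoters (Per1, Cry1, Tef, Ciart and Bhlhe41), in 4 of the 10 promoters of higher clock genes, and in 9.43% of all. The D-box was in 1 clock promoter, that of Per3, and in 0.626% of all. The composite was in 5 of 25 promoters of the amino acid response list (Atf3, Chac1, Pycr1, Slc7a11 and Nupr1), in 2 of the 5 of its higher genes, and in 0.642% of all. A match is a description of letters. In the sequences below, 5′ to 3′ on the gene's strand, capitals mark the E-box in Ciart and Per1, the D-box in Per3 and the composite in Slc7a11 and Chac1.
Ciart (chr3:95882179-95882478, minus strand): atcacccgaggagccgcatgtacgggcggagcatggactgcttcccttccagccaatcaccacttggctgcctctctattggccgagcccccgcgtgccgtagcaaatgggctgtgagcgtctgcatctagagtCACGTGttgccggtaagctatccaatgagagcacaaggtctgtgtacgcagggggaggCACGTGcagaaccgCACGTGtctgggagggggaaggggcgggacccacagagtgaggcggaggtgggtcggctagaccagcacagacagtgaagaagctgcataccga
Per1 (chr11:69098699-69098998, plus strand): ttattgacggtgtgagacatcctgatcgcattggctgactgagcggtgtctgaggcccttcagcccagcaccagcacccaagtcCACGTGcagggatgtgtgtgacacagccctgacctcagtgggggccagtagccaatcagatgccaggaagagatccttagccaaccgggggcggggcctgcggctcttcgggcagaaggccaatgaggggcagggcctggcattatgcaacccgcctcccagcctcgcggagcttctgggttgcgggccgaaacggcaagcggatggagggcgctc
Per3 (chr4:151044616-151044915, minus strand): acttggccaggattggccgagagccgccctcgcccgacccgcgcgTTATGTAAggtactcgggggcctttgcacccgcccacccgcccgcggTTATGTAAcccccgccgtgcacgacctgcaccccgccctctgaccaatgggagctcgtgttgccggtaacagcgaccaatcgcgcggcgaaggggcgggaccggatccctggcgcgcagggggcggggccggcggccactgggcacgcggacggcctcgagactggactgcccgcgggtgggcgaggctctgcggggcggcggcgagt
Slc7a11 (chr3:50443564-50443863, minus strand): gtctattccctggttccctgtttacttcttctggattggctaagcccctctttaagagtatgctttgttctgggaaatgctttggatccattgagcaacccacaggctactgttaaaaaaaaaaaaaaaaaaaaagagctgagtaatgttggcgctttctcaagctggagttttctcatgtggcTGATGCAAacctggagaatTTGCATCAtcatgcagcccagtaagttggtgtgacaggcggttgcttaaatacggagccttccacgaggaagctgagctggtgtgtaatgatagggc
Chac1 (chr2:119350992-119351291, plus strand): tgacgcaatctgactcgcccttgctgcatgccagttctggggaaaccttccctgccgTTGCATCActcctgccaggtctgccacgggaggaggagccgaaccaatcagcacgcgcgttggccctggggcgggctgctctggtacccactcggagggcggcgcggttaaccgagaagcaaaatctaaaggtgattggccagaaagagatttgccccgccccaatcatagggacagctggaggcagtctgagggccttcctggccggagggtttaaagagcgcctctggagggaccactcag

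Stress genes rose in part. Of 24 genes of the NRF2 and glutathione list, which guards against oxidants, 7 were higher and 0 lower (median 0.64 log2), while their median difference from PBS_DMSO was -1.30 log2 in BLM_BT2 lungs and -2.04 log2 in BLM_DMSO lungs. Slc7a11, the cystine importer whose promoter holds the composite motif at both -66 and -47 from the start, was at 11.7, 11.2 and 30.1 TPM in BLM_BT2 lungs, against 3.11, 4.6 and 2.11 TPM in BLM_DMSO lungs and 107, 76.8 and 86.9 TPM in PBS_DMSO lungs. Treated lungs lay between the other groups without overlap. They differed by 2.02 log2, SE 0.36, adjusted p = 0.0141 from BLM_DMSO and by -2.42 log2, adjusted p = 0.00763 from PBS_DMSO. Gclc, the limiting enzyme of glutathione synthesis, was at 751, 693 and 1343 TPM in BLM_BT2 lungs, against 216, 402 and 199 TPM in BLM_DMSO lungs and 2589, 2286 and 2443 TPM in PBS_DMSO lungs. Between the bleomycin groups it differed by 1.78 log2 (SE 0.31, adjusted p = 0.0138). Gsta2, which may share reads with close copies, was at 15.8, 11.9 and 44.9 TPM in BLM_BT2 lungs, against 2.08, 3.36 and 3.38 TPM in BLM_DMSO lungs. The difference between the bleomycin groups was 2.47 log2 (SE 0.4, adjusted p = 0.0109). Srxn1 (1.44 log2, adjusted p = 0.0297), Gsta3 (1.38 log2, adjusted p = 0.0137), Gstm1 (1.15 log2, adjusted p = 0.0138) and Cbr3 (1.14 log2, adjusted p = 0.0136) were the others. BLM_BT2 replicate 3 was the highest treated lung in the first 3 of these. Hmox1 (1.55 log2, adjusted p = 0.0731) and Nqo1 (0.09 log2, adjusted p = 0.793), named after their values were seen, did not pass. The count was 5, 7 and 2 without BLM_BT2 replicate 1, 2 or 3. Without BLM_DMSO replicate 1, 2 or 3 there were 6, 9 and 10, and without PBS_DMSO replicate 1, 2 or 3 there were 6, 7 and 6. Osgin1, a growth inhibitor induced by oxidants and also named after its value was seen, was at 138, 125 and 272 TPM in BLM_BT2 lungs, against 35.4, 46.6 and 30.4 TPM in BLM_DMSO lungs and 679, 613 and 460 TPM in PBS_DMSO lungs. BLM_BT2 minus BLM_DMSO came to 2.15 log2 (SE 0.3, adjusted p = 0.0071). With only BLM_BT2 and BLM_DMSO in the fit, Slc7a11 (adjusted p = 0.0624) and Gsta2 (adjusted p = 0.0553) did not pass. Among these 8 named calls, 3 held whichever of the 9 libraries was left out (Slc7a11, Gsta2 and Osgin1). The losses were 5 without BLM_BT2 replicate 3 (adjusted p up to 0.0717), 2 without BLM_BT2 replicate 1 (adjusted p up to 0.0526) and 1 without BLM_DMSO replicate 1 (adjusted p up to 0.062). Added to these were 1 without BLM_DMSO replicate 3 (adjusted p up to 0.0527), 1 without PBS_DMSO replicate 1 (adjusted p up to 0.0513) and 1 without PBS_DMSO replicate 3 (adjusted p up to 0.0503).

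The ATF4 list, genes turned on by amino acid shortage and endoplasmic reticulum stress, had 6 of 30 members higher and 0 lower. Its median of 0.16 log2 was near that of all genes and was -0.01 log2 with the length and GC trend removed. Against PBS_DMSO the list's median was -0.89 log2 in BLM_BT2 lungs, with 15 members lower, where 1.17% of all genes were lower. In BLM_DMSO lungs it was -1.18 log2, with 19 members lower, where 13.3% of all genes were lower. Gdf15 (2.13 log2, adjusted p = 0.0294), a stress hormone, Chac1 (2.09 log2, adjusted p = 0.0125), which degrades glutathione, and Slc7a11 were higher. So were Sesn2 (1.72 log2, adjusted p = 0.0348), a leucine sensor that restrains mTORC1, the glutamine carrier Slc1a5 (1.15 log2, adjusted p = 0.0115) and Trib3 (0.91 log2, adjusted p = 0.0224). Asns, asparagine synthetase and the usual readout of this response, was at 27.8, 27.7 and 47.6 TPM in BLM_BT2 lungs, against 38.6, 40.8 and 28.6 TPM in BLM_DMSO lungs, with overlapping groups (-0.1 log2, adjusted p = 0.799). The transcript of Atf4 itself did not pass (-0.15 log2, adjusted p = 0.71). Gars (-0.59 log2, adjusted p = 0.0228) and Rars (-0.51 log2, adjusted p = 0.0465) were lower among 20 aminoacyl-tRNA synthetases and none was higher. Of all genes tested 5.41% were lower and 6.34% higher. Of 17 heat shock chaperones 2 were higher, Hspa1a and Hspa1b, near-identical neighbours between which reads are uncertain. Hspa1a was at 44.5, 69.3 and 79.2 TPM in BLM_BT2 lungs, against 7.34, 12.8 and 8.7 TPM in BLM_DMSO lungs and 342, 454 and 202 TPM in PBS_DMSO lungs. The differences were 2.62 log2, SE 0.32, adjusted p = 0.00496 for Hspa1a and 2.97 log2, SE 0.43, adjusted p = 0.00855 for Hspa1b. Both stayed below the uninjured lungs in all treated lungs. Without BLM_DMSO replicate 2 7 chaperones were higher. Leaving out any 1 of the 9 libraries kept 2 of these 9 named calls (Hspa1a and Hspa1b). Those not held were 7 without BLM_BT2 replicate 3 (adjusted p up to 0.137), 5 without BLM_BT2 replicate 1 (adjusted p up to 0.15), 3 without BLM_BT2 replicate 2 (adjusted p up to 0.0791) and 3 without BLM_DMSO replicate 1 (adjusted p up to 0.0839). Besides, there were 2 without PBS_DMSO replicate 1 (adjusted p up to 0.0803), 2 without PBS_DMSO replicate 2 (adjusted p up to 0.0765), 2 without PBS_DMSO replicate 3 (adjusted p up to 0.0782) and 1 without BLM_DMSO replicate 3 (adjusted p up to 0.0594).

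Of 20 xenobiotic genes, largely lung cytochromes and esterases, 10 were higher and 0 lower, with a median of 1.27 log2. Aox3, an aldehyde oxidase, was at 33.1, 18.8 and 32.1 TPM in BLM_BT2 lungs, against 1.23, 2.96 and 4.96 TPM in BLM_DMSO lungs and 32.6, 44.2 and 40.9 TPM in PBS_DMSO lungs. The BT2 difference was 2.91 log2 (SE 0.35, adjusted p = 0.00432). Cyp2b10, a target of the receptor CAR, was at 485, 343 and 658 TPM in BLM_BT2 lungs, against 55.6, 213 and 113 TPM in BLM_DMSO lungs and 835, 857 and 842 TPM in PBS_DMSO lungs. This was a difference of 2.11 log2 (SE 0.41, adjusted p = 0.0182). Aldh3a1, Cyp4b1, Ces1g and Por were higher as well (1.69, 1.32, 1.2 and 1.14 log2), beside Cyp2f2, Ces1d and Aldh1a1 of the epithelial and fibroblast lists. The count was 2, 8 and 1 without BLM_BT2 replicate 1, 2 or 3. Leaving out BLM_DMSO replicate 1, 2 or 3 gave 5, 10 and 13, and leaving out PBS_DMSO replicate 1, 2 or 3 gave 6, 8 and 7. Pon1, paraoxonase, was another of the 12 largest rises (3.19 log2, SE 0.46, adjusted p = 0.00855). In lipid metabolism, Scd1 (1.94 log2, adjusted p = 0.0336), stearoyl-CoA desaturase, and Fasn (1.74 log2, adjusted p = 0.0285), fatty acid synthase, were the 2 higher of 27 sterol and fatty acid synthesis genes, a share near the 6.34% of all genes. The count was 0, 0 and 0 without BLM_BT2 replicate 1, 2 or 3. Dropping BLM_DMSO replicate 1, 2 or 3 gave 0, 14 and 1, and leaving out PBS_DMSO replicate 1, 2 or 3 gave 1, 1 and 1. Scd1 was at 1406, 1097 and 1188 TPM in BLM_BT2 lungs, against 143, 778 and 291 TPM in BLM_DMSO lungs and 203, 236 and 230 TPM in PBS_DMSO lungs, so treated lungs stood above both other groups. Of 25 genes of fatty acid oxidation and PPAR targets 5 were higher, among them Fabp1 (2.02 log2, adjusted p = 0.0105), Ucp3 (1.44 log2, adjusted p = 0.0199), Acot1 (1.32 log2, adjusted p = 0.0292) and Acot2 (0.88 log2, adjusted p = 0.0376). Higher members of that list numbered 1, 4 and 0 without BLM_BT2 replicate 1, 2 or 3. They numbered 2, 8 and 6 without BLM_DMSO replicate 1, 2 or 3, and 2, 3 and 2 without PBS_DMSO replicate 1, 2 or 3. Of the 13 genes named here as higher or lower, 2 were called without each of the 9 libraries in turn (Aox3 and Pon1). Calls lost numbered 11 without BLM_BT2 replicate 3 (adjusted p up to 0.156), 10 without BLM_BT2 replicate 1 (adjusted p up to 0.124), 7 without BLM_DMSO replicate 1 (adjusted p up to 0.123), 6 without PBS_DMSO replicate 1 (adjusted p up to 0.0714) and 6 without PBS_DMSO replicate 3 (adjusted p up to 0.0697). Smaller losses were 4 without BLM_BT2 replicate 2 (adjusted p up to 0.0854), 4 without PBS_DMSO replicate 2 (adjusted p up to 0.0701), 2 without BLM_DMSO replicate 2 (adjusted p up to 0.0638) and 1 without BLM_DMSO replicate 3 (adjusted p up to 0.0527).

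Ribosomal protein genes were lower in 19 of 47 members, all 47 differences were negative, and the median was -0.85 log2. Their summed level was 30560, 38460 and 28740 TPM in BLM_BT2 lungs, against 78070, 40780 and 61580 TPM in BLM_DMSO lungs and 28660, 28270 and 27010 TPM in PBS_DMSO lungs. BLM_DMSO replicate 2 was near the treated lungs. Rpl32 had the largest fall among the 47, at 446, 824 and 602 TPM in BLM_BT2 lungs, against 2631, 1078 and 1788 TPM in BLM_DMSO lungs. Between the bleomycin groups it differed by -1.5 log2 (SE 0.32, adjusted p = 0.023). Ribosomal protein genes have many near-identical pseudogene copies. The count was 0, 11 and 0 without BLM_BT2 replicate 1, 2 or 3. In fits without BLM_DMSO replicate 1, 2 or 3 there were 1, 46 and 4, and without PBS_DMSO replicate 1, 2 or 3 there were 2, 4 and 3. Of 33 nuclear genes of oxidative phosphorylation 4 were lower and 0 higher (median -0.42 log2). These were Ndufv2 (-0.7 log2, adjusted p = 0.0318), Atp5c1 (-0.63 log2, adjusted p = 0.0352), Sdhd (-0.57 log2, adjusted p = 0.0492) and Cox5a (-0.51 log2, adjusted p = 0.0349). Lower members of that list numbered 0, 3 and 0 without BLM_BT2 replicate 1, 2 or 3. Fits that omitted BLM_DMSO replicate 1, 2 or 3 gave 0, 19 and 0, and those that omitted PBS_DMSO replicate 1, 2 or 3 gave 0, 0 and 0. Of 24 glycolysis and hypoxia genes 3 were lower, Eno1 (-0.99 log2, adjusted p = 0.017), Adm (-0.87 log2, adjusted p = 0.0483) and Pkm (-0.67 log2, adjusted p = 0.0475). Of all genes tested 5.41% were lower, a share to be set beside this count and those of the other lists here. Of 30 mitosis genes 3 were lower, Ccna2 (-1.17 log2, adjusted p = 0.0235), Anln (-1.05 log2, adjusted p = 0.0377) and Cenpe (-0.91 log2, adjusted p = 0.0456). All 30 mitosis differences were negative (median -0.57 log2). Lower mitosis genes numbered 0, 10 and 0 without BLM_BT2 replicate 1, 2 or 3. They numbered 1, 5 and 1 without BLM_DMSO replicate 1, 2 or 3, and 1 without any 1 PBS_DMSO library. Of 30 DNA replication genes limma called 0, with 6 at an unadjusted p under 0.05. Mki67, the proliferation antigen, was at 7.33, 14 and 8.91 TPM in BLM_BT2 lungs, against 21.3, 12.9 and 16.5 TPM in BLM_DMSO lungs (-0.71 log2, adjusted p = 0.105). Of 20 autophagy and lysosome genes Gabarap (-0.79 log2, adjusted p = 0.0218), Ctsd (-0.73 log2, adjusted p = 0.0345), Lamp2 (-0.5 log2, adjusted p = 0.0448) and Atg5 (-0.49 log2, adjusted p = 0.0362) were lower. With each of the 9 libraries left out in turn, 0 of the 15 calls named here held every time. Lost calls were 15 without BLM_BT2 replicate 1 (adjusted p up to 0.139), 15 without BLM_BT2 replicate 3 (adjusted p up to 0.173), 12 without BLM_DMSO replicate 1 (adjusted p up to 0.12), 11 without PBS_DMSO replicate 1 (adjusted p up to 0.0818) and 11 without PBS_DMSO replicate 2 (adjusted p up to 0.0762). Also lost were 11 without PBS_DMSO replicate 3 (adjusted p up to 0.082), 8 without BLM_DMSO replicate 3 (adjusted p up to 0.0885), 6 without BLM_BT2 replicate 2 (adjusted p up to 0.0791) and 1 without BLM_DMSO replicate 2 (adjusted p up to 0.0623).

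**Figure D4:**
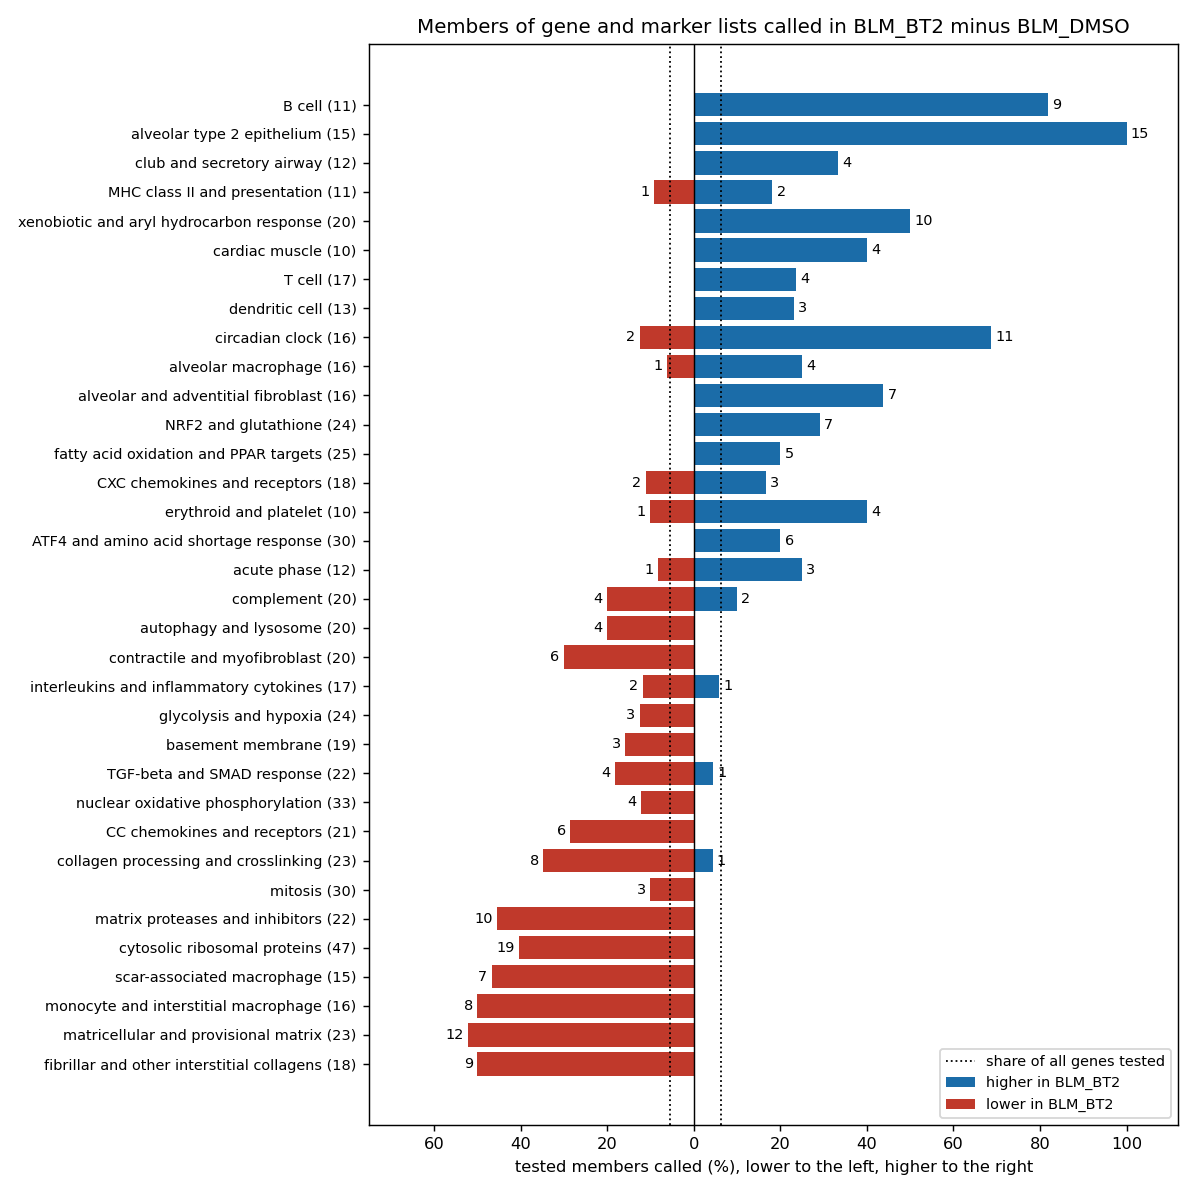
Percentage of tested members of each gene or marker list called lower (left, red) or higher (right, blue) in BLM_BT2 against BLM_DMSO lungs, for lists with at least 9 tested and 3 called members; the number tested is in brackets, the number called stands at each bar, and lists are ordered by their median difference. The dotted lines mark the shares of all genes tested, 5.41% lower and 6.34% higher; among the bars to the right alveolar type 2 epithelium (15 of 15) stands furthest from its line, and among those to the left matricellular genes (12 of 23).

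The other treatments of bleomycin lungs are set beside BT2. Each has its own table, its own controls and the lower bleomycin dose, and no test was run across tables. With the diet free of branched-chain amino acids for 14 days (BLM_BCAA_free against BLM_ND, day 21), 4.02% of genes tested were higher and 6.12% lower. With 3 mM branched-chain amino acids in the water (BLM_BCAA against BLM_NW, day 14), 0.872% were higher and 0.331% lower. Over the 17562 genes tested with both BT2 and diet, 273 were higher in both, 24.3% of the BT2 rises and 36.9% of the diet rises. The genes lower in both numbered 379, 39.4% of the BT2 falls and 34.5% of the diet falls. None was called in opposite directions, while 10 were higher with BT2 and lower with the diet without BLM_DMSO replicate 2, with 1 the other way. Without BLM_DMSO replicate 3 these were 3 and 0, and with array weights 5 and 2. Over the 16774 genes tested with both BT2 and water, 40 were higher with BT2 and lower with water, 3.69% of the BT2 rises and 70.2% of the water falls. Another 73 were lower with BT2 and higher with water, 7.66% of the BT2 falls and 50% of the water rises. None was lower in both, and 4 were higher in both. Across genes, which are not independent, the differences correlated at 0.524 between BT2 and diet and at -0.472 between BT2 and water. Genes higher with both BT2 and diet numbered 70, 204 and 29 without BLM_BT2 replicate 1, 2 or 3. Without BLM_DMSO replicate 1, 2 or 3 there were 164, 371 and 445, and without PBS_DMSO replicate 1, 2 or 3 there were 174, 206 and 189. Those lower in both numbered 97, 391 and 43 without BLM_BT2 replicate 1, 2 or 3. Leaving out BLM_DMSO replicate 1, 2 or 3 gave 205, 419 and 334, and leaving out PBS_DMSO replicate 1, 2 or 3 gave 250, 274 and 262. The 40 genes higher with BT2 and lower with water numbered 20, 33 and 11 without BLM_BT2 replicate 1, 2 or 3. Dropping BLM_DMSO replicate 1, 2 or 3 gave 32, 44 and 45, and leaving out PBS_DMSO replicate 1, 2 or 3 gave 34, 35 and 34. The 73 genes lower with BT2 and higher with water numbered 28, 78 and 15 without BLM_BT2 replicate 1, 2 or 3. In fits without BLM_DMSO replicate 1, 2 or 3 there were 49, 69 and 65, and without PBS_DMSO replicate 1, 2 or 3 there were 56, 58 and 56.

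Among members, Arg1 differed by -5.6 log2 with BT2, -2.82 log2, adjusted p = 0.00139 with the diet, and 1.94 log2, adjusted p = 0.025 with water. Timp1 differed by -3.36 log2 with BT2, -3.18 log2, adjusted p = 6.82e-05 with the diet, and 1.5 log2, adjusted p = 0.133 with water, where it did not pass. Col1a1 differed by -1.63 log2 with BT2, -1.69 log2, adjusted p = 0.000247 with the diet, and 1.34 log2, adjusted p = 0.0265 with water. Lyz1 had the opposite sign in each, with 3.89 log2 with BT2, 2.87 log2, adjusted p = 3.5e-05 with the diet and -1.44 log2, adjusted p = 0.0487 with water. Of the genes raised by bleomycin in the water and diet experiments, the diet lowered 348 and water raised 58, but these experiments were used to choose the genes. The 4 genes higher with both BT2 and water, named because they are so few, were Osgin1, Slc7a11, Srxn1 and Trim29. The first 3 are oxidant response genes. Their differences with water were 0.88 log2, adjusted p = 0.0423 for Osgin1, 1.37 log2, adjusted p = 0.0491 for Slc7a11 and 0.73 log2, adjusted p = 0.0466 for Srxn1. Trim29 differed by 2.4 log2, adjusted p = 0.0213 with BT2 and 1.65 log2, adjusted p = 0.0156 with water. The clock gene Nr1d1 passed with BT2 and did not pass with the diet (0.89 log2, adjusted p = 0.0949) or water (-0.6 log2, adjusted p = 0.151), while Arntl passed with the diet too (-0.98 log2, adjusted p = 0.00383). Whether effects differ between treatments was not tested. Among 5 of the BT2 calls named here, 3 held whichever of the 9 libraries was left out (Arg1, Timp1 and Lyz1). The losses were 2 without BLM_BT2 replicate 1 (adjusted p up to 0.0873), 2 without BLM_BT2 replicate 3 (adjusted p up to 0.116) and 1 without BLM_DMSO replicate 1 (adjusted p up to 0.0658). Added to these were 1 without BLM_DMSO replicate 3 (adjusted p up to 0.0517), 1 without PBS_DMSO replicate 1 (adjusted p up to 0.0544) and 1 without PBS_DMSO replicate 3 (adjusted p up to 0.0535). Outside these 5, the BT2 calls of Osgin1, Slc7a11 and Nr1d1 held in all 9 fits, and that of Srxn1 was lost in 5.

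**Figure D5:**
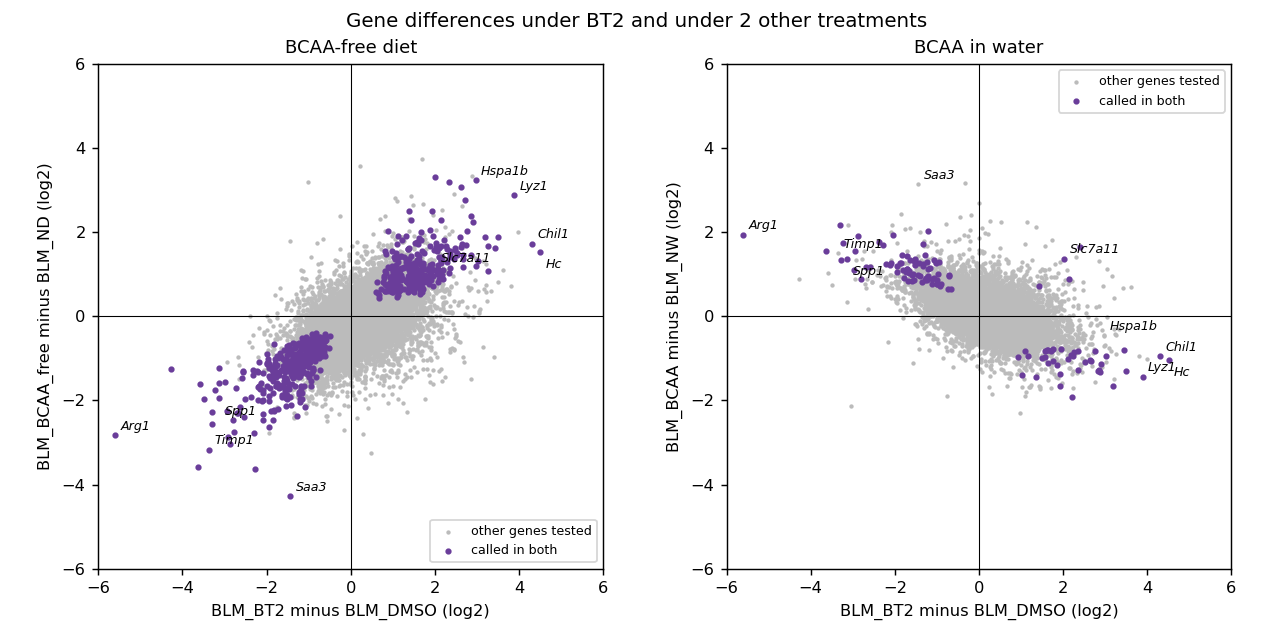
Each gene's BLM_BT2 minus BLM_DMSO log2 difference (horizontal) against its BLM_BCAA_free minus BLM_ND difference (left, 17562 genes) or BLM_BCAA minus BLM_NW difference (right, 16774 genes); genes called in both comparisons are purple. Purple points lie in the same-sign corners on the left (273 and 379) and mostly in the opposite-sign corners on the right (40 and 73, with 4 in the upper right).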

How the data were processed

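Whole-lung RNA was sequenced from 3 BLM_BT2, 3 BLM_DMSO and 3 PBS_DMSO mice, grouped by their titles. The deposited table holds TPM made by the authors over all genes. The submitters' processing notes name build mm39 and, with no version or role, the tools HISAT2, featureCounts and Subread, FastQC and Trim Galore, and DESeq2. The sources used here do not give the annotation. TPM keep no depth, so counting error is unknown. Nothing says that replicates are more than separate mice of a group. The p-values rest on the spread between mice within a group, pooled over all 3 groups, PBS_DMSO included.

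Genes without a symbol (0.273 to 0.34% of TPM) were left out, and 29 repeated symbols were summed. The filter kept 18151 genes, those that reached a TPM of 1 in 3 or more of the 9 libraries. Group means were fitted to log2(TPM + 1), a pseudocount of 1, with limma 3.58.1 (R 4.3.3) and a trended prior. Calls were made at 0.05 on p-values adjusted by Benjamini-Hochberg over every tested gene. The water (17209 genes) and diet (18593 genes) tables were fitted in the same way, separately. The procedure was tested on simulated data.

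The gene and marker lists, comparisons, injury gene sets and tests were chosen with earlier results of these data known. The rule named the 12 largest rises and 12 largest falls among called genes whose groups did not overlap and had, in 1 of them, a mean TPM of 5 or more, without mitochondrial genes, receptor segments, pseudogenes and predicted (Gm and Rik) genes, up to 4 called members of each list (or the member of smallest p where none passed), and 30 fixed genes, 194 in all. The text names part of these, together with further called list members, and that choice was made after the values were seen. A few of these genes are not reported here. Alternatives were a filter at a TPM of 5 or none, pseudocounts of 0.1 and 0.5, median centring, no mitochondrial transcripts, only the 2 bleomycin groups in the fit, array weights, a replicate block, robust variance and each library of the bleomycin groups left out. Removal of a trend with transcript length and GC content (known for 96.1% of tested genes), PBS_DMSO libraries left out, and list and overlap counts without single libraries were added after the data were seen. Promoters came from RefSeq, build GRCm38.p6.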

Additional observations from a re-analysis of the deposited data

How the results depend on the processing

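No named gene changed its sign with a call under any alternative, while the number of calls depended on the fit. With no filter there were 366 higher and 453 lower genes, injury-raised genes numbered 77 lower and 5 higher, and injury-lowered genes 28 higher and 0 lower. With only BLM_BT2 and BLM_DMSO in the fit these were 104, 86, 35, 3, 12 and 0 in that order. Array weights gave 2790 higher and 2308 lower genes, 297 lower and 38 higher injury-raised genes, 0 lower injury-lowered genes and a median of 0.751 log2 for the injury-lowered genes, which was 1.511 log2 at a pseudocount of 0.1. Median centring, which shifts all genes by -0.11 log2, gave 1652 higher and 1663 lower genes and 233 lower injury-raised genes. Removing the length and GC trend gave 1396 higher and 2034 lower genes and 263 lower injury-raised genes. The cause was not tested, except that the fit of 2 groups holds 6 libraries and the unfiltered fit tests 33751 genes. Leaving out 1 library gave 68 to 3375 higher and 56 to 1552 lower genes. Over the same leave-outs injury-raised genes numbered 25 to 208 lower and 3 to 57 higher (medians -0.671 to -0.309 log2), and injury-lowered genes 8 to 97 higher and 0 to 1 lower (medians 0.875 to 1.429 log2). With the replicate number as a block, 980 genes were higher and 773 lower. Same-numbered libraries deviated together at correlations of -0.074 to 0.19, not all above 0.1. Such correlations from 3 libraries per group cannot exclude pairing, and no label says that replicate numbers pair mice. Of the named genes that were called and still tested, 133 of 165 lost their call without BLM_BT2 replicate 3 and 8 of 164 without BLM_DMSO replicate 2. With only BLM_BT2 and BLM_DMSO in the fit 124 of 166 lost their call, and with no filter 81 of 166 did. Depth is unknown, so low levels carry an error that cannot be given.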

Other observations

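Most B cell markers were higher in BLM_BT2 lungs. Of 11 B cell markers 9 were higher and 0 lower, with a median of 2.24 log2, among them the antigen-receptor partner Cd79b, at 31.1, 96.7 and 45.3 TPM in BLM_BT2 lungs, against 3.32, 9.5 and 21.2 TPM in BLM_DMSO lungs and 15.3, 17 and 11.1 TPM in PBS_DMSO lungs (2.39 log2, adjusted p = 0.0293). Their summed level was 114, 456 and 209 TPM in BLM_BT2 lungs, against 11.5, 39.5 and 85.4 TPM in BLM_DMSO lungs and 48.8, 55.6 and 38.3 TPM in PBS_DMSO lungs. The groups did not overlap, with BLM_BT2 replicate 2 the highest. Of 17 T cell markers 4 were higher, Cd2 (1.79 log2, adjusted p = 0.0414), Cd4 (1.62 log2, adjusted p = 0.045), Cd3e (1.51 log2, adjusted p = 0.0488) and Cd27 (1.19 log2, adjusted p = 0.0454), and all 17 differences were positive. Summed T cell markers overlapped, at 171, 280 and 141 TPM in BLM_BT2 lungs and 25.7, 67.0 and 151 TPM in BLM_DMSO lungs. T cell calls numbered 0, 0 and 0 without BLM_BT2 replicate 1, 2 or 3. With the loss of BLM_DMSO replicate 1, 2 or 3 the number was 0, 3 and 13, and without PBS_DMSO replicate 1, 2 or 3 it was 0, 0 and 0. Of 10 NK and cytotoxic markers 1 was higher, Klra8 (1.6 log2, adjusted p = 0.0295), where 6.34% of all genes were higher. Higher NK and cytotoxic markers numbered 0, 0 and 0 without BLM_BT2 replicate 1, 2 or 3. They numbered 0, 1 and 6 without BLM_DMSO replicate 1, 2 or 3, and 0, 1 and 0 without PBS_DMSO replicate 1, 2 or 3. Of 13 dendritic cell markers Cd209a (2.87 log2, adjusted p = 0.0181), Clec9a (1.49 log2, adjusted p = 0.0133) and Xcr1 (1.17 log2, adjusted p = 0.0375) were higher. Xcr1 reached 1 TPM only in the BLM_BT2 lungs, which fixes the direction of its difference. Of 11 class II and presentation genes Ciita, the master regulator of class II genes, and H2-Ob rose (2.05 log2, adjusted p = 0.0441 and 2.35 log2, adjusted p = 0.0295), and the protease Ctss fell (-0.94 log2, adjusted p = 0.0334). The class II genes H2-Aa (1.72 log2, adjusted p = 0.093), H2-Ab1 (1.95 log2, adjusted p = 0.0608), H2-Eb1 (1.97 log2, adjusted p = 0.0729) and Cd74 (1.92 log2, adjusted p = 0.0545) did not pass. Higher genes of the class II and presentation list numbered 0, 0 and 0 without BLM_BT2 replicate 1, 2 or 3. They numbered 1, 6 and 8 without BLM_DMSO replicate 1, 2 or 3, and 1 without any 1 PBS_DMSO library. Among class I genes H2-Q7 (1.98 log2, adjusted p = 0.00951) and H2-K2 (1.4 log2, adjusted p = 0.00645), close copies of others and named after their values were seen, were higher. Of 32 interferon response genes 2 were higher, Tap1 (1.09 log2, adjusted p = 0.0497) and Gbp3 (0.96 log2, adjusted p = 0.0467), a share near the 6.34% of all genes. Their number was 0, 0 and 0 without BLM_BT2 replicate 1, 2 or 3. Fits that omitted BLM_DMSO replicate 1, 2 or 3 gave 0, 6 and 6, and those that omitted PBS_DMSO replicate 1, 2 or 3 gave 0, 0 and 0. B cell calls numbered 5, 2 and 0 without BLM_BT2 replicate 1, 2 or 3. Leaving out BLM_DMSO replicate 1, 2 or 3 gave 1, 8 and 11, and leaving out PBS_DMSO replicate 1, 2 or 3 gave 2, 4 and 4. Leaving out any 1 of the 9 libraries kept 2 of these 16 named calls (H2-Q7 and H2-K2). Those not held were 14 without BLM_BT2 replicate 3 (adjusted p up to 0.126), 12 without BLM_BT2 replicate 1 (adjusted p up to 0.132), 11 without BLM_BT2 replicate 2 (adjusted p up to 0.125), 11 without BLM_DMSO replicate 1 (adjusted p up to 0.113) and 11 without PBS_DMSO replicate 1 (adjusted p up to 0.0766). Besides, there were 10 without PBS_DMSO replicate 3 (adjusted p up to 0.0724), 9 without PBS_DMSO replicate 2 (adjusted p up to 0.0743), 1 without BLM_DMSO replicate 2 (adjusted p up to 0.0529) and 1 without BLM_DMSO replicate 3 (adjusted p up to 0.0504).

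Muscle and vessel markers give the remaining values. Of 10 cardiac muscle markers 4 were higher, Myh6 (2.33 log2, adjusted p = 0.0116), Myl7 (1.88 log2, adjusted p = 0.0101), Mybphl (1.74 log2, adjusted p = 0.0279) and Tnni3 (1.09 log2, adjusted p = 0.0295). Higher cardiac markers numbered 2, 4 and 0 without BLM_BT2 replicate 1, 2 or 3. Dropping BLM_DMSO replicate 1, 2 or 3 gave 2, 4 and 5, and leaving out PBS_DMSO replicate 1, 2 or 3 gave 4, 7 and 3. Their summed level was 330, 255 and 373 TPM in BLM_BT2 lungs, against 113, 105 and 133 TPM in BLM_DMSO lungs and 1755, 697 and 1527 TPM in PBS_DMSO lungs. Its part in the other rises was not tested. Of 16 endothelial markers 1 was higher, Tie1 (0.83 log2, adjusted p = 0.0438), a share near the 6.34% of all genes. Pecam1 did not pass (0.58 log2, adjusted p = 0.201). Higher endothelial markers numbered 6 without BLM_DMSO replicate 2 and 0 without any 1 of the other libraries. Of 10 erythroid and platelet markers 4 were higher and 1 lower (median 0.24 log2). The platelet genes Ppbp, Gp9 (2.5 log2, adjusted p = 0.0107) and Itga2b (1.32 log2, adjusted p = 0.0346) were among the higher, Pf4 was lower (-1.03 log2, adjusted p = 0.0426), and the 4 globin genes did not pass. Of 21 folding genes of the endoplasmic reticulum limma called 0, with 2 at an unadjusted p under 0.05, and of 12 plasma cell markers 0, with 4. Without BLM_DMSO replicate 2 or 3 the higher plasma cell markers were 1 and 3. Of 14 neutrophil markers limma called 0, with 2 at an unadjusted p under 0.05, and their sums overlapped at 3217, 1792 and 1125 TPM in BLM_BT2 lungs and 6187, 1358 and 2206 TPM in BLM_DMSO lungs. Of the 8 genes named here as higher or lower, 0 were called without each of the 9 libraries in turn. Calls lost numbered 8 without BLM_BT2 replicate 3 (adjusted p up to 0.141), 5 without BLM_BT2 replicate 1 (adjusted p up to 0.13), 5 without BLM_DMSO replicate 1 (adjusted p up to 0.111) and 3 without BLM_BT2 replicate 2 (adjusted p up to 0.097). Smaller losses were 3 without BLM_DMSO replicate 3 (adjusted p up to 0.084), 3 without PBS_DMSO replicate 1 (adjusted p up to 0.0708), 3 without PBS_DMSO replicate 2 (adjusted p up to 0.0649) and 3 without PBS_DMSO replicate 3 (adjusted p up to 0.0671).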
